A study of Mus musculus with 24 samples.

Results

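Interferon-stimulated genes were followed in the thymocytes of irradiated mice. They were taken as a list of 43 mouse genes chosen by name, and each was read from the probe whose accession maps to it, the brightest in Cy5 where several did. Of the 43 genes, 41 had such a probe, out of 21154 genes named on the array and 55681 probes in all, and no probe was matched to Mx1 or Mx2. The list was drawn up with the response to the adaptive regimen of radiation in view, and Rsad2 and Slfn4 were known to be among its largest rises. Comparisons of that regimen with the other groups are therefore given here as a description, with no test.

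Thymocyte RNA from C57BL/6J mice was labelled with Cy5 and hybridised beside a Cy3-labelled reference, a pool of amplified Universal Mouse RNA, on 24 arrays of 2 colours. Males and females aged 4 to 5 weeks formed 8 groups of 3 independent samples. Control mice were not irradiated, low dose mice received 0.075 Gy of X-rays, high dose mice received 1.75 Gy of γ-rays, and RAR (radio-adaptive response) mice received 0.075 Gy of X-rays and, 6 h later, 1.75 Gy of γ-rays. The time from the last exposure to collection was not given in the sources used here, and the thymus was dispersed and strained with no sort. All values are log2(Cy5/Cy3), so a level of 0 equals the reference pool, and levels of different genes are not set against each other.

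Interferons are secreted proteins that cells release on sensing viral or misplaced nucleic acid. Type I interferon binds a receptor made of IFNAR1 and IFNAR2, whose kinases JAK1 and TYK2 phosphorylate STAT2. STAT2 works in a complex with IRF9 that binds the interferon-stimulated response element and turns on a large set of genes, many of which block viral RNA, tag proteins with ISG15 or dampen the signal again. Type II interferon acts at another element, the gamma-activated site, and raises IRF1 and guanylate-binding proteins.

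The arrays differed in quality in ways that touch the results below. Cy5 was well above background for 49.3% to 62.8% of probes on 22 arrays, for 34.7% on female RAR array 3 and for 71.8% on female RAR array 2. On all 24 arrays Xist, Ddx3y and Eif2s3y lay on the side of the labelled sex. All 11 markers of double-positive thymocytes, the main cell of the thymus, were well above background on all 24 arrays. Of the 41 interferon-stimulated genes, 38 were well above background on all 24 arrays, and the exceptions were Irf9 on 23, Slfn4 on 20 and Slfn5 on 12.

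Over the 41 genes, the median log2 ratio of an array lay between 0.22 and 0.72 in the 6 controls, between 0.66 and 1.26 at the low dose, between 1.01 and 1.45 at the high dose, and between 2.78 and 3.45 in RAR. The median over all probes stayed between -0.14 and 0.09 on the 24 arrays. The genes thus stood higher at either single dose and highest after both doses in sequence, and 35 of the 41 had their medians over 6 arrays in the order control, low dose, high dose, RAR. These medians pool the sexes: 41 of 41 genes were higher at the high than at the low dose in males, and 10 of 41 in females. For 37 of the 41, the lowest of the 6 RAR arrays was above the highest of the other 18 arrays, as it was for 2.59% of all probes. The other 4 were Irf1, Slfn1, Slfn5 and Zbp1.

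**Figure D1:**
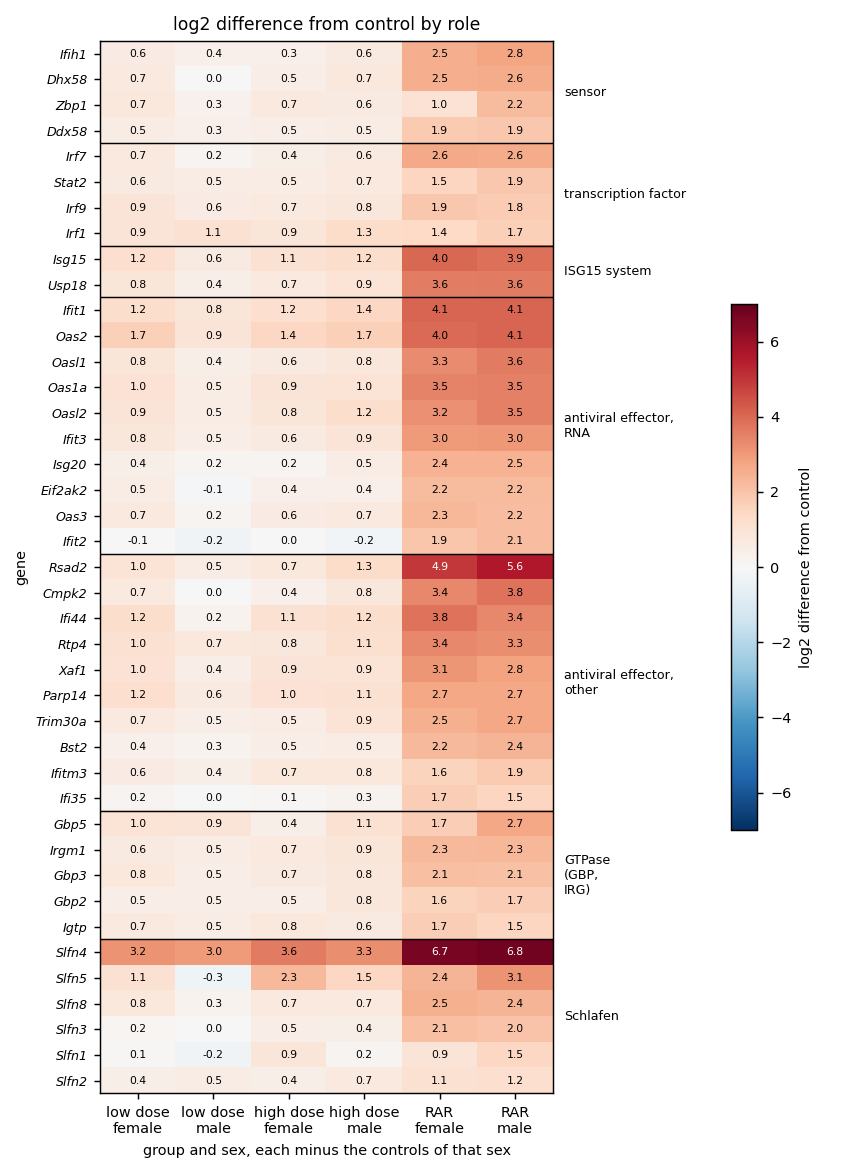
Differences from the controls of the same sex (log2, printed in each cell) for the 41 genes, in rows grouped by role, at the low dose, the high dose and RAR in each sex. The RAR columns hold the largest values, up to 6.65 and 6.78 for Slfn4, and the low dose in males holds the smallest, with a median of 0.45.

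The promoters of 5 genes are shown because they cover the range seen in the data: Rsad2 and Slfn4, which had the largest RAR changes, Ifit1 and Isg15, which were called at single doses (Isg15 not at the low dose in males) and stood higher in RAR, and Irf1, which was nearly as high at single doses as in RAR. Each is the 200 bases before the start used in the promoter table, 5′ to 3′ on the gene's strand, from RefSeq (build GRCm38.p6). For Slfn4 that start lies inside the gene record, whose first base is 83175172, so the end of its window is within the gene. Capitals mark matches to GAAANNGAAA or its reverse complement TTTCNNTTTC, letters of the interferon-stimulated response element, and to TTCNNNGAA, letters of the gamma-activated site.
Rsad2, chr12:26456453-26456652, minus strand: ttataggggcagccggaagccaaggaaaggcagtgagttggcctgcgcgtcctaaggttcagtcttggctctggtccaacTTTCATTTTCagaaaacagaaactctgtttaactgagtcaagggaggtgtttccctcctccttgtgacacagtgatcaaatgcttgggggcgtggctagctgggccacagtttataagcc
Slfn4, chr11:83174986-83175185, plus strand: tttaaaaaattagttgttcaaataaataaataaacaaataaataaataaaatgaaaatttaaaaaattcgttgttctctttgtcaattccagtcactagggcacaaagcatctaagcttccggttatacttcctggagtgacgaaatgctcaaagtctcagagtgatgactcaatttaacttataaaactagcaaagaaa
Ifit1, chr19:34640689-34640888, plus strand: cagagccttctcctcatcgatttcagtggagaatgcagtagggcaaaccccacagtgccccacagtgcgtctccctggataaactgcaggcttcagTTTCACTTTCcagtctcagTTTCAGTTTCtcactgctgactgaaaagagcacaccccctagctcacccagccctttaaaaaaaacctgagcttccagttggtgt
Isg15, chr4:156200819-156201018, minus strand: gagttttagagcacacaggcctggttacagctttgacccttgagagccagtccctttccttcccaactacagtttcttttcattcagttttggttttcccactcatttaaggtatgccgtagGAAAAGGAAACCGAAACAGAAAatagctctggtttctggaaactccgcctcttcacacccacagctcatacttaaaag
Irf1, chr11:53769814-53770013, plus strand: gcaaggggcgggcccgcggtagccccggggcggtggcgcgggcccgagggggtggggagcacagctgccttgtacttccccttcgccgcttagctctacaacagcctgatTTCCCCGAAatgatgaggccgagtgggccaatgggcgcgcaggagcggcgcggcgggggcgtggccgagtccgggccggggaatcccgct

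In the Rsad2 promoter the response-element letters began 120 bases before the start. Ifit1 held 2 separate matches, beginning at -104 and -85, and Isg15 held 3 that overlap each other, at -78, -72 and -66. The Irf1 window shown, 1 of 2 listed, held no response-element match and a gamma-activated-site match at -90, and the Slfn4 window held neither. Over the 300 bases from 250 before to 50 after the start, 35 of the 41 genes had a window in the table used, and 20 of these (57.1%) held the response-element letters on either strand, against 3.99% of 27025 genes. The gamma-activated-site letters, which read the same on both strands, were in 10 of the 35 (28.6%), against 9.55% of genes. Both motifs are short, a match is a run of letters and not a measured binding site, and a gene with several windows was counted once. The RAR change did not follow the match closely: in females the median was 2.31 for the 20 genes with the response-element letters (range 1.51 to 4.94) and 2.44 for the 15 without (range 0.88 to 6.65), and in males 2.36 and 2.46.

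Rsad2 encodes viperin, an enzyme that makes a chain-terminating nucleotide and so blocks viral RNA synthesis. In females its log2 ratio was -0.83, -1.27 and -0.91 in controls, -0.14, 0.02 and 0.02 at the low dose, -0.16, -0.72 and 0.04 at the high dose, and 3.49, 4.05 and 4.27 in RAR. In males it was -1.12, -0.62 and -1.40 in controls, -0.76, -0.94 and 0.14 at the low dose, 0.06, 0.15 and 0.52 at the high dose, and 5.24, 4.51 and 3.89 in RAR. No RAR array came near any other array of either sex, and only the male low dose arrays overlapped their controls. The RAR mean was 4.94 above control in females and 5.60 in males. Of the single doses, only the high dose in males passed the test, at 1.29 ± 0.33 (SE, n = 3) with an adjusted p of 0.0104 by limma. The male high dose difference was 1.45 within the slide that holds both groups.

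Slfn4, a Schlafen gene expressed in myeloid cells and inducible by interferon, changed most. Its ratio in female controls was -2.03, -2.11 and -2.15, and in male controls -2.33, -1.76 and -1.92. At the low dose it was 1.13, 0.99 and 1.07 in females and 0.67, 0.63 and 1.56 in males, and at the high dose 1.68, 1.15 and 1.74 in females and 0.79, 0.88 and 2.13 in males. In RAR it reached 4.0, 4.57 and 5.09 in females and 5.78, 4.78 and 3.76 in males. The 3 levels (control, single dose, RAR) did not overlap in either sex, while the low and high dose arrays overlapped in males. All 4 single-dose comparisons passed the test, with 3.16 ± 0.43 in females and 2.96 ± 0.43 in males at the low dose (adjusted p of 6.45e-05 and 0.000161 by limma), and 3.62 ± 0.43 and 3.27 ± 0.43 at the high dose (1.71e-05 and 3.65e-05). Slfn4 was not well above background on any female control array and was so on 2 male control arrays, so the female folds are bounds: after scaling each channel between arrays, and open to dye bias because no dyes were swapped, Cy5 was at least 5.01-fold higher at the low dose, at least 7.48-fold at the high dose and at least 60.6-fold in RAR.

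**Figure D2:**
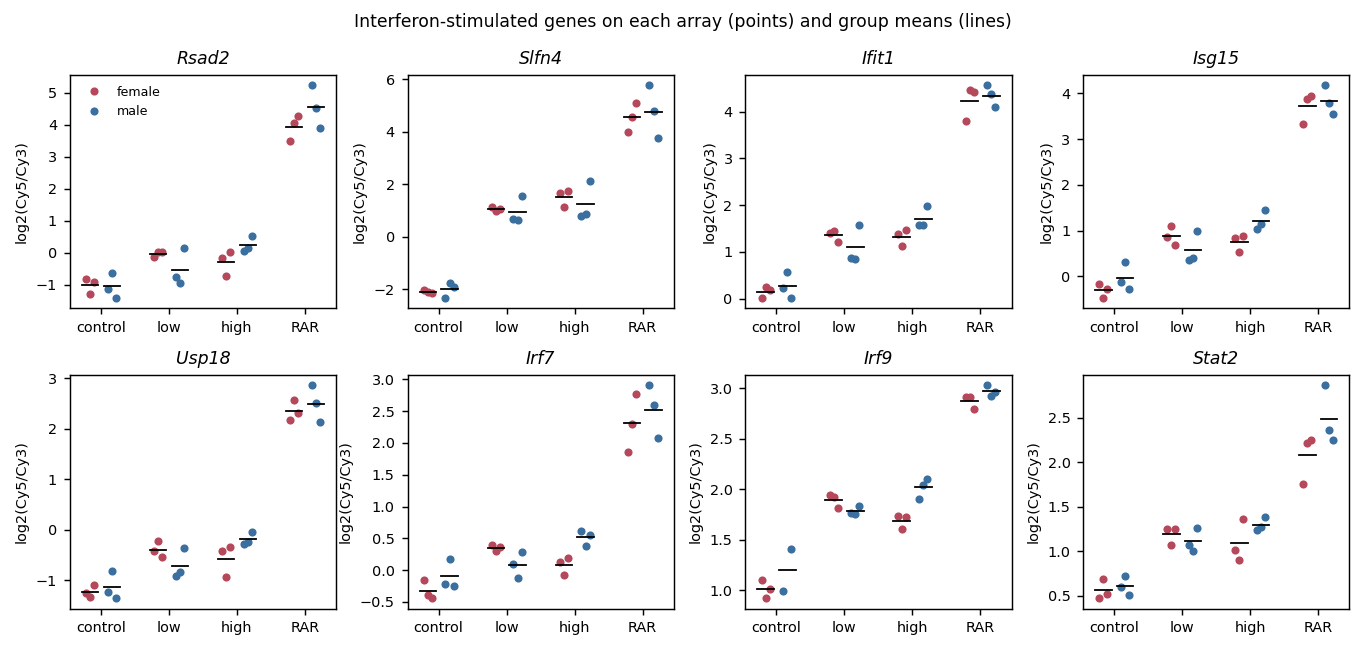
Log2(Cy5/Cy3) of 8 genes on each of the 24 arrays (points, females red and males blue) by treatment, with a line at each group's mean. The y axes differ between panels. In all 8 panels the RAR points lie above the rest.

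Ifit1, which binds viral RNA that lacks the host cap structure, was called at both doses in both sexes. Its ratios were 0.02, 0.25 and 0.19 in female controls, 1.41, 1.45 and 1.21 at the low dose, 1.39, 1.12 and 1.46 at the high dose and 3.80, 4.46 and 4.42 in RAR. In males they were 0.24, 0.57 and 0.02, then 0.88, 0.86 and 1.57, then 1.58, 1.58 and 1.98, and in RAR 4.57, 4.38 and 4.09. The single-dose arrays lay above every control of their sex and far below RAR. Single-dose differences ran from 0.82 ± 0.21 (low dose, males, adjusted p = 0.0175 by limma) to 1.43 ± 0.21 (high dose, males, adjusted p = 0.000138), and the RAR difference was 4.07 in each sex.

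In the ISG15 system, Isg15 is the ubiquitin-like protein that is attached to other proteins, and Usp18 removes it and also blocks the type I receptor. Isg15 read -0.17, -0.47 and -0.27 in female controls, 0.86, 1.09 and 0.69 at the low dose, 0.84, 0.53 and 0.88 at the high dose, and 3.34, 3.88 and 3.93 in RAR. In males it read -0.13, 0.30 and -0.28, then 0.36, 0.40 and 0.99, then 1.04, 1.14 and 1.45, and 4.18, 3.79 and 3.56 in RAR. Usp18 followed the same pattern. In females it read -1.25, -1.34 and -1.10 in controls, -0.42, -0.23 and -0.54 at the low dose, -0.43, -0.93 and -0.35 at the high dose, and 2.17, 2.56 and 2.31 in RAR. In males it read -1.23, -0.83 and -1.36, then -0.93, -0.85 and -0.36, then -0.28, -0.26 and -0.05, and 2.85, 2.50 and 2.13 in RAR. Both genes were called at both doses in females and at the high dose in males. At the low dose in males Isg15 was 0.62 ± 0.22 (adjusted p = 0.0783 by limma) and Usp18 0.43 ± 0.20 (adjusted p = 0.213).

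Among the transcription factors, Stat2 and Irf9 are parts of the complex that binds the response element, Irf7 drives further interferon production and Irf1 answers mainly to type II interferon. Stat2 read 0.47, 0.69 and 0.52 in female controls, 1.25, 1.07 and 1.26 at the low dose, 1.01, 0.90 and 1.36 at the high dose, and 1.76, 2.22 and 2.25 in RAR. In males it read 0.60, 0.72 and 0.51, then 1.07, 1.01 and 1.26, then 1.24, 1.27 and 1.39, and 2.86, 2.36 and 2.25 in RAR. The 4 treatments were thus separate in both sexes except for the 2 single doses, which overlapped in each.
Irf9 read 1.10, 0.92 and 1.01 in female controls, 1.94, 1.93 and 1.81 at the low dose, 1.73, 1.61 and 1.73 at the high dose, and 2.91, 2.91 and 2.80 in RAR. In males it read 0.99 and 1.41 in controls, then 1.76, 1.75 and 1.83, then 1.91, 2.04 and 2.11, and 3.03, 2.92 and 2.96 in RAR. Male control array 3 has no value for Irf9 because its spot was marked an outlier, so the male comparisons rest on 2 controls. Irf9 rose at both doses in females, by 0.88 ± 0.10 and 0.68 ± 0.10, and at the high dose in males, by 0.81 ± 0.11. The male low dose difference, 0.58 ± 0.11, had an adjusted p of 0.00299 by limma but fell short of 1.5-fold.
Irf7 read -0.15, -0.40 and -0.44 in female controls, 0.39, 0.30 and 0.36 at the low dose, 0.12, -0.08 and 0.18 at the high dose, and 1.86, 2.30 and 2.77 in RAR. In males it read -0.22, 0.17 and -0.25, then 0.09, -0.13 and 0.29, then 0.61, 0.38 and 0.56, and 2.90, 2.59 and 2.08 in RAR. Only the female low dose was called, at 0.68 ± 0.21 with an adjusted p of 0.0352 by limma, although the high dose arrays of either sex also lay above all controls of that sex.

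Irf1 behaved differently from the other transcription factors in these values. It read 0.75, 0.83 and 1.00 in female controls and 0.68, 0.99 and 0.81 in male controls, against 1.74, 1.66 and 1.81 in females and 1.89, 1.69 and 2.07 in males at the low dose. At the high dose it read 1.75, 1.63 and 1.75 in females and 2.14, 2.11 and 2.08 in males, and in RAR 2.11, 2.29 and 2.30 in females and 2.72, 2.56 and 2.21 in males. The single doses thus carried most of the rise. All 4 single-dose differences were called, from 0.85 ± 0.13 (adjusted p = 0.000185 by limma) to 1.29 ± 0.13 (adjusted p = 1.99e-06), while RAR stood only 0.52 above the high dose in females and 0.39 in males. A further Irf1 probe, well above background on 2 arrays, does not measure the gene here.

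The high dose was compared with control to find what a single challenge did. In females 21 of the 41 genes were called higher, where 4.23% of all probes were, and in males 29 were, where 5.20% of probes were, and 0 were called lower in either sex. The median difference was 0.66 in females and 0.80 in males, against -0.02 over all probes in each. By role, 6 of 10 antiviral genes acting on RNA were called in each sex, as were 5 and 8 of the 10 other antiviral genes, 3 and 5 of the 5 GTPases, 2 and 3 of the 4 transcription factors, and 0 and 2 of the 4 sensors. Oas2, which makes the messenger that activates RNase L, showed 1.44 ± 0.22 in females (adjusted p = 0.000226 by limma) and 1.68 ± 0.22 in males (adjusted p = 3.56e-05). Parp14, an ADP-ribosyltransferase, showed 0.99 ± 0.19 and 1.09 ± 0.19, and Rtp4, a chaperone of receptors that also restrains viruses, 0.80 ± 0.17 and 1.14 ± 0.17. Rsad2, Slfn2, Stat2, Ifih1, Dhx58, Gbp2, Gbp5, Cmpk2 and Trim30a were called in males and not in females, and Slfn5 in females and not in males, but the sex difference at the high dose was itself called for 0 of the 41. Slfn5, called at 2.27 ± 0.61, was well above background on 2 of 3 high dose arrays and on 0 of 3 controls, and its lower bound did not exceed 1-fold. Female controls and female high dose arrays shared no slide. With slide as a block the female median was 1.04 and 21 genes were called, and the male median was 0.95 with 33 called. Within the slide that holds 2 male high dose arrays and 1 male control, 39 of 41 genes were higher and the median was 0.99.

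The low dose was compared with control to find what priming alone did, and more of these genes were called in females than in males. In females 25 of the 41 were higher, where 4.76% of all probes were, with a median difference of 0.72. In males 7 were higher, where 3.21% of probes were, with a median of 0.45, and 0 were called lower in either sex. The sexes were not called different at the low dose for any of the 41. The 7 were Slfn4, Ifit1, Oas2, Irf1, Rtp4, Gbp5 and Parp14. In females Oas2 was 1.67 ± 0.22 above control (adjusted p = 4.73e-05 by limma), Ifi44, a microtubule-associated protein of unsettled function, 1.21 ± 0.28 (adjusted p = 0.00559), and Xaf1, a promoter of apoptosis, 1.00 ± 0.17 (adjusted p = 0.000431). In males the same genes gave 0.93 ± 0.22 (adjusted p = 0.00965), 0.23 ± 0.28 (adjusted p = 0.718) and 0.45 ± 0.17 (adjusted p = 0.0968). The male count rests on few arrays: it was 3 without male control array 1, 11 without male control array 2, and 4 without male control array 3 or without male low dose array 3. Within slides, the low dose median was 0.69 in females (41 of 41 higher), and 0.39 and 0.40 on the 2 male slides (35 of 41 higher on each). These set 1 low dose array against 3 controls in females, and 1 against 1 and 2 against 2 in males.

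Genes called at no single dose in either sex included Ifit2, Ifi35, Isg20, Bst2 and Eif2ak2. Slfn3 and Ddx58 were also among them, with single-dose differences of at most 0.47 and 0.53 by the probes used. A further Ddx58 probe, well above background on all 24 arrays, gave 0.56 at the low and 0.72 at the high dose in females. In males it gave 0.02 and 0.18. Ifit2, a relative of Ifit1, read 1.05, 1.08 and 0.92 in female controls and 1.12, 1.18 and 1.08 in male controls. At the low dose it read 0.69, 1.08 and 1.12 in females and 0.97, 0.66 and 1.02 in males, and at the high dose 0.92, 1.04 and 1.08 in females and 0.92, 0.81 and 1.09 in males. In RAR it read 2.42, 3.05 and 3.32 in females and 4.01, 3.22 and 2.60 in males. Its single-dose arrays thus overlapped the controls or lay below them, and the RAR arrays were clear of all the others. Eif2ak2, the kinase PKR that halts translation on double-stranded RNA, gave 0.51 and 0.35 in females and -0.07 and 0.37 in males at the low and high dose, and 2.21 and 2.20 in RAR. Bst2, or tetherin, which holds budding virus at the cell surface, gave at most 0.54 at a single dose and 2.25 and 2.35 in RAR.

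The high dose was then set against the low dose. In females 0 of the 41 genes were called in either direction, 0 had an unadjusted p under 0.05, and the median difference was -0.10, or 0.19 with slide as a block. In males 0 were called by limma, 22 had an unadjusted p under 0.05 and all 41 were higher at the high dose, with a median of 0.39. The male median over all probes was -0.0022. No share over all probes is given beside the unadjusted counts, so nothing is read from them. Over all probes, 0% were called in either direction in females and 0.00180% in males. The 3 high dose arrays lay above the 3 low dose arrays for 25 of the 41 in males, as for 7.29% of all probes, and for 3 of the 41 in females, as for 6.17%. They lay below for 0 of the 41 in males and 6 in females. No share over all probes is given beside those counts, so nothing is read from them. The male genes with the smallest p were Ifi44 (1.01 ± 0.28), Oasl2 (0.70 ± 0.19) and Oas2 (0.76 ± 0.22), with adjusted p from 0.431 to 0.445. In Ifi44 the male high dose arrays read -2.37, -2.17 and -2.37 against -3.85, -3.35 and -2.74 at the low dose.

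After the adaptive regimen most of the list stood well above either single dose. The median RAR difference from control was 2.44 in females and 2.57 in males. As a description that tests nothing, because the list was chosen with this contrast known, 39 of the 41 genes in females and 41 in males lay past the limits used for calls elsewhere, which 9.64% and 11.2% of all probes passed upward. Against the high dose the medians were 1.86 in females and 1.81 in males, and against the low dose 1.87 and 2.27. In females the smallest RAR difference from the high dose was 0.02, for Slfn1. All 41 differences were positive in all 6 of these comparisons, which chose or share the contrast that chose the list. These comparisons share their RAR arrays, and those with one control group share it too.

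By the median of each role, RAR differences were largest in the ISG15 system and the antiviral genes, although the single largest was that of Slfn4. The 10 antiviral genes acting on RNA had median RAR differences from control of 3.09 in females and 3.28 in males, and the 10 other antiviral genes 2.89 and 2.78. Isg15 stood 4.02 and 3.88 above control and Usp18 3.58 and 3.63. The Oas family, whose products sense double-stranded RNA, ranged from 2.15 (Oas3, males) to 4.05 (Oas2, males). Cmpk2, a mitochondrial nucleotide kinase that lies beside Rsad2 in the genome, stood 3.38 and 3.80 above control (1.96 and 3.64 by a further probe). Rtp4 stood 3.36 and 3.25 above control, and Ifi44 3.80 and 3.37. The transcription factors were lower, with medians of 1.69 and 1.82, as were the GTPases (1.74 and 2.08), which act against pathogens held in vacuoles, and the sensors (2.19 and 2.40). Among the RNA sensors, Ifih1 (MDA5) stood 2.55 and 2.76 above control, Dhx58 (LGP2) 2.53 and 2.57, and Ddx58 (RIG-I) 1.85 and 1.88.
The Schlafen genes, which are thought to restrain growth and translation, spread most widely, from 0.88 for Slfn1 in females to 6.78 for Slfn4 in males. Slfn3 read 0.59 to 1.02 in 5 of 6 controls and 0.47 in the other, and 2.22, 2.65 and 3.43 in female RAR and 3.45, 2.74 and 1.89 in male RAR. Slfn2 changed little but evenly: its controls read 3.24 to 3.31, the low dose 3.63 to 3.93, the high dose 3.56 to 3.96 and RAR 4.25 to 4.59. Slfn1 was scattered, with 2.94 on male low dose array 1 against 4.73 and 5.09 on the other two, and 4.55 on female RAR array 3 against 6.40 and 6.00.

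Female RAR array 3, the array with the fewest probes above background, mattered for Zbp1, a sensor of Z-form nucleic acid. Zbp1 read 2.10 there against 4.90 and 5.07 on the other two female RAR arrays and 5.86, 5.23 and 5.06 in male RAR, while its controls read 2.90 to 3.45. A further Zbp1 probe, above background on all 24 arrays, gave RAR differences of 1.88 in females and 1.87 in males, against 1.02 and 2.23 from the probe used. For the list as a whole, the female RAR median was 2.35 above control without that array. Of 11 further probes for these genes, 10 had a positive RAR difference in both sexes, and the exception was the Irf1 probe near background.

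The RAR change was larger than the sum of the separate low and high dose changes, on the log2 scale, for 36 of 41 genes in females and 40 of 41 in males. The median excess was 1.27 in females and 1.45 in males. Over all probes the RAR change exceeded the sum for 51.5% in females and 49.4% in males. Rsad2 had the largest excess, 3.25 in females and 3.78 in males, and by the probes used Cmpk2 followed at 2.35 and 3.06. A further Cmpk2 probe, well above background on all 24 arrays, gave RAR changes of 1.96 in females and 3.64 in males. Its low and high dose changes were 0.13 and 0.27 in females and 0.99 and 1.00 in males. The rank of Cmpk2 thus rests on the probe used. In males Irf1 alone lay below the sum, at -0.67, and in females Irf1, Slfn1, Slfn4, Slfn5 and Zbp1 did, from -0.09 (Slfn1) to -0.96 (Slfn5). For Slfn4 the difference from the sum was -0.13 in females, whose controls were not well above background, and 0.55 in males. Slfn5 was not well above background on any female control either. Slfn1 and Zbp1 read low on female RAR array 3. A further Zbp1 probe gave 0.43 at the low dose, 0.38 at the high dose and 1.88 in RAR in females. The counts below the sum are therefore not read as a sex difference. The same controls enter all 3 changes, and the excess is given with no test. It contains the RAR change, with which in view the list was chosen. Nothing is therefore read from its standing above the share over all probes.

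**Figure D3:**
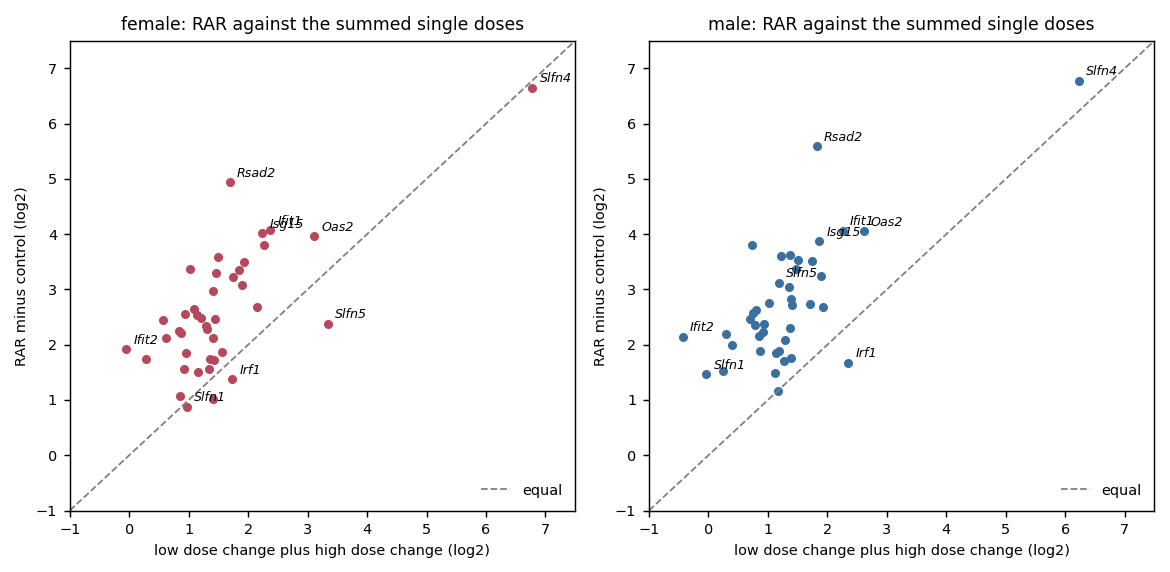
RAR minus control (y axis, log2) against the low dose change plus the high dose change (x axis, log2) for the 41 genes in females (left) and males (right), with a dashed line where they are equal. Most genes lie above the line, Rsad2 farthest, while Irf1 lies below it in both sexes.

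Males and females were compared within each treatment. Of the 41 genes, 0 were called in either direction in controls, at the low dose, at the high dose or in RAR, where 0.210%, 0.228%, 0.304% and 0.438% of all probes were called. An unadjusted p under 0.05 was reached by 0, 3, 13 and 6 of the 41. No share over all probes is given beside these counts, so no sex difference is read from them. At the low dose 37 of the 41 were lower in males, with a median difference of -0.24, and at the high dose 36 were higher in males, with a median of 0.26. The medians over all probes were 0.01 and -0.02. The interaction of sex with treatment was called for 0 of the 41 genes by limma, and for 0.00359% of all probes. It reached an unadjusted p under 0.05 for 7 genes, as for 6.49% of all probes, with Cmpk2 lowest at 0.0148 (adjusted p = 0.719). In RAR Rsad2 was 0.61 higher in males and Slfn4 0.22 higher, and for both genes the arrays of the sexes overlapped.

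Few of the genes for interferons, their receptors and the receptor kinases were called. In these and the following lists, a call in RAR is a description that tests nothing, because the lists were chosen with earlier results known. Against control, 9.64% of all probes in females and 11.2% in males were called higher in RAR. No share of all probes called lower is given, so nothing is read from a count called lower. Of 14 interferon genes measured, 2 were called higher in female RAR, and 3 higher and 1 lower (Ifna2) in male RAR, against control. Ifna2 was also lower at the high dose in males, by -0.78 ± 0.23, and the interferon alpha probes belong to near-identical genes that they may not tell apart. Ifnb1, the interferon beta gene, which answers nucleic acid sensing, was not well above background on any of the 6 controls. It read 2.57, 3.08 and -0.14 in female RAR and 2.00, 3.30 and 1.64 in male RAR, against 0.16, 0.58 and 0.14 in female controls and -0.06, -0.22 and 0.09 in male controls, and it was above background on 2 of 3 RAR arrays of each sex. The male RAR difference from control was at least 1.60-fold, and in females the lower bound did not exceed 1-fold. At the single doses Ifnb1 was called in neither sex. Ifng, the type II ligand, was not called in any of the comparisons with control.

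Of 6 receptor chains, Ifnar1, Ifnar2, Ifngr1 and Ifngr2 were called in no comparison with control, and Il10rb, a chain of the type III and interleukin 10 receptors, was higher in RAR by 0.83 ± 0.15 in females and 1.09 ± 0.15 in males. Ifnlr1, the other type III chain, was lower at the high dose in females, by -0.83 ± 0.22, and was called in no other comparison with control. Of the receptor kinases, Jak1 and Tyk2 stayed within 0.24 of control. Jak2 stood above control in RAR, by 0.70 ± 0.10 in males and 0.45 ± 0.10 in females. Of 12 genes that sense nucleic acid or relay that signal, 7 were called higher in RAR in each sex and 0 lower. Of all probes, 9.64% in females and 11.2% in males were called higher. Among them were Trim25, which activates RIG-I, at 1.95 in each sex, Tlr7, at 1.46 and 1.70, and Mb21d1 (cGAS), at 1.07 and 1.21. Irf3, Mavs, Tbk1 and Ticam1, which carry the signal from the sensors, were called in no comparison with control.

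Of 8 genes that dampen the response, 4 were called higher in RAR in each sex, where 9.64% and 11.2% of all probes were. Socs3, an inhibitor of JAK kinases induced by many cytokines, was already up by 1.37 and 1.58 at the low dose and by 1.48 and 1.82 at the high dose, in females and males, and by 2.04 and 1.98 in RAR. Samhd1, which destroys nucleotides needed by viruses, was also called in all 6 comparisons, up to 2.39 in male RAR. Of 46 further interferon-stimulated genes outside the list, 36 were called higher in female RAR and 37 in male RAR, and 0 lower. Of all probes, 9.64% and 11.2% were called higher. These counts test nothing either, because the genes were picked with earlier results of these data known. Cxcl10, a chemokine that draws T cells, read -0.18, -0.38 and -0.55 in female controls and 3.78, 5.08 and 4.60 in female RAR, and -0.80, -0.90 and -1.51 in male controls and 6.31, 5.71 and 5.08 in male RAR. It was higher at all single doses too, by 1.20 to 2.35. Psmb8 and Psmb9 (immunoproteasome), Ly6e, Sp100, Aim2, Cxcl9 and Epsti1 were called in none of the comparisons with control, and Lap3 was lower at all single doses, by -1.01 to -1.17.

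Among the markers of other cells, some were higher and some lower where the list was high. Of all probes, 4.76% in females and 3.21% in males were called higher at the low dose. The shares were 4.23% and 5.20% at the high dose, and 9.64% and 11.2% in RAR. As in the other lists, the calls in RAR test nothing. No share of all probes called lower is given, so nothing is read from the counts called lower. Of 12 myeloid markers, 11 were well above background on all 24 arrays and none was below it throughout, and 5 were called higher and 1 lower (Mrc1) at the low dose in females, 5 higher in males, 4 and 9 higher at the high dose, and 9 and 12 higher in RAR, in females and males. Their summed Cy5 signal, in multiples of an array's 75th percentile, was 126 to 205 in controls, 256 to 432 at the low dose, 218 to 430 at the high dose and 538 to 640 in RAR. By gene, the median myeloid difference from control was 0.47 in females and 0.79 in males at the low dose. It was 0.42 and 0.93 at the high dose and 1.51 and 2.09 in RAR. Cd14, the lipopolysaccharide co-receptor, was far above these medians, at 2.52 to 3.49 above control at single doses and 3.94 and 4.14 in RAR. The dendritic cell sum ran from 420 to 505 in controls and from 718 to 927 in RAR, with 7 of 11 markers above background on all arrays and Xcr1 on none. A sum follows its brightest genes: by gene, 3 dendritic markers were higher and 2 lower in female RAR, with a median of -0.03, and 4 were higher and 0 lower in male RAR, with a median of 0.49. The mature T cell sum ran from 89.7 to 118 in controls and from 178 to 216 in RAR. By gene, 5 of its 8 markers were higher and 0 lower in female RAR, with a median of 0.86. In male RAR 6 were higher and 0 lower, with a median of 1.17. The double-positive thymocyte sum was 1120 to 1341 in controls and 636 to 898 in RAR, but by gene 2 of the 11 markers were higher and 3 lower in female RAR (median 0.00) and 3 higher and 1 lower in male RAR (median 0.29). All sums here use Cy5 alone, whereas the counts and medians by gene use Cy5/Cy3. With Cy5 alone the median of all probes itself moved in RAR, so the sums may carry that shift and are not read as a change in these cells. Of 8 B cell markers, 1 was higher and 4 were lower in RAR in each sex. Only 3 of the 8 were well above background on all 24 arrays. Of 11 thymic epithelium markers, 1 was higher and 3 lower in female RAR and 2 higher and 4 lower in male RAR. Only 5 of these 11 were well above background on all 24 arrays. The part of these cells in the rise of the interferon-stimulated genes was not tested. In bulk samples, fewer cells of a type and less RNA per cell cannot be told apart, and nor can more of either.

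**Figure D4:**
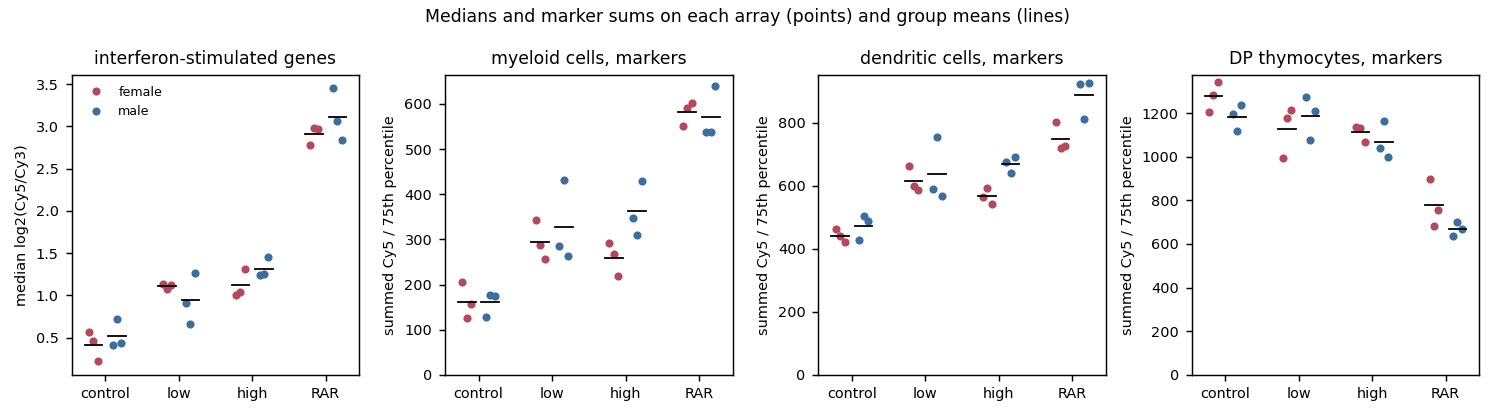
Left, the median log2(Cy5/Cy3) of the 41 genes on each array; the other panels, the summed Cy5 signal of the markers of myeloid cells, dendritic cells and double-positive (DP) thymocytes, in multiples of the array's 75th percentile. Points are arrays (females red, males blue) and lines are group means. The myeloid sum rises from at most 205 in controls to at least 538 in RAR, and the double-positive sum goes from at least 1120 to at most 898, although by Cy5/Cy3 its 11 genes did not all go one way. With Cy5 alone, as in the sums, the median of all probes also moved in RAR.

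The groups were spread over 3 slides in a way that the sexes did not share. Male RAR and male control shared slide 2 with 1 array each, where 41 of 41 genes were higher in RAR and the median was 3.00. Against the high dose, RAR was higher for 41 of 41 within each shared slide, with medians of 1.73 in females and of 1.67 and 2.08 in males. These set 2 RAR arrays against 3 high dose arrays in females, and 2 against 1 and 1 against 2 in males. Against the low dose RAR was higher for 39 of 41 in females (median 2.05) and 41 of 41 in males (2.78). The female value sets only RAR array 3, the array with the fewest probes above background, against 2 low dose arrays. The male value sets 1 array against 1. No slide held both female controls and female RAR arrays, and with slide as a block the RAR medians over control were 2.78 in females and 2.95 in males.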

How the data were processed

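Per the labels and the methods, thymocyte RNA (Cy5) and the reference pool (Cy3) were labelled by Low Input Quick Amp amplification and hybridised with no dye swap. The deposited scanner files hold raw and processed intensity values, which Feature Extraction 11.5.1.1 (per the file headers) background-subtracted and dye-normalized within each array. The authors' deposited table holds log2 ratios of Cy5 over Cy3, within 0.01 of those recomputed here, and was used as an alternative.

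From the processed signals, log2(Cy5/Cy3) was taken, control spots and outlier-flagged spots (183 to 368 an array) were left out and spots of a probe were averaged. Accessions were named through RefSeq's gene table, which named 28026 probes, and a gene was read from its brightest probe (11 of the 41 had several). Group means were fitted over all 24 arrays with limma 3.58.1 in R 4.3.3, with 16 residual degrees of freedom, and p-values were adjusted by Benjamini-Hochberg over 55681 probes. A gene was called at an adjusted p under 0.05 and at least 1.5-fold. No filter on low signal was used. Precision is set by 3 arrays a group, each an independent sample per the labels. The fit was tested on simulated data. Promoter windows came from RefSeq (GRCm38.p6).

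Members and gene lists were chosen with earlier results of these data known. The named genes were all 41 members, 8 of them given array by array (Irf1 and Ifit2 were added, and genes not called were named, after their values were seen), and of the other lists the ligands, receptors, kinases and those called in a comparison given. Alternatives were another background correction, quantile scaling, Cy5 alone, the deposited table, a filter on dim probes, slide or replicate blocks, the mean of all probes, a stricter fold, and leaving out each array. Same-numbered arrays of different groups did not deviate together (median r of -0.00 over 84 pairs, 4 above 0.1), so the numbers do not pair the samples. One gene of the pathway lists is not reported here.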

Additional observations from a re-analysis of the deposited data

How the results depend on the processing

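No call changed direction under the alternatives tried, but the median difference of the high from the low dose in females, -0.10, where 0 genes were called, turned to 0.19 with slide as a block, and the median male minus female difference turned in RAR from 0.14 to -0.24 with quantile scaling and in controls from 0.09 to -0.01 without male control array 2, with 0 genes called in each. The single-dose counts of called genes moved by over 1.5 times in these cases: for the high dose in females 13 with Cy5 alone (21 as reported), for the low dose in males 4 with quantile scaling (7 as reported), and, where a log2 change over 1.5 was asked, 2 for the high dose in females, 2 in males, 2 for the low dose in females and 1 in males. The median RAR difference from control was 2.78 in females and 2.95 in males with slide as a block, and 2.25 in males with quantile scaling, and the male RAR difference from the low dose was 2.52 with slide as a block. The cause was not tested. Leaving out each array gave 14 to 20 called genes for the high dose in females and 23 to 33 in males, 21 to 24 for the low dose in females and 3 to 11 in males. The RAR medians ranged over 2.35 to 2.52 (females) and 2.44 to 2.73 (males) against control, 1.73 to 1.96 and 1.67 to 1.99 against the high dose, and 1.69 to 1.99 and 2.06 to 2.39 against the low dose. High against low dose, the sex differences and the interaction stayed at 0 called genes in each of these. With the replicate number as a block the high dose gave 19 calls in females and 29 in males, the low dose gave 24 and 5, and 5 single-gene calls were lost and 0 gained. Differences under 1.5-fold were not called by rule, 3 arrays a group limit the precision, and Slfn5 was near background. With Cy5 alone the median of all probes moved in RAR by 0.64 in females and 0.33 in males, and the female median of the 41 genes was 2.53. Background correction by normexp with loess changed the split over all probes, with 4366 of 6739 RAR calls higher in females and 5516 of 8273 in males, where 5368 of 11403 and 6251 of 13688 were as reported, and all 41 genes were higher in both.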
